A study of Sus scrofa with 18 samples.

Results

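The 10 genes described here belong to the pathway that sets the calcium sensitivity of smooth muscle, and their histone marks were followed in pig myometrium. They are the GTPase genes RHOA, RHOB and RND3, the exchange factor gene ARHGEF12, the kinase genes ROCK1 and ROCK2, and the myosin phosphatase genes PPP1CB, PPP1R12A, PPP1R12B and PPP1R14A. They were taken by name, are 10 of the 28210 RefSeq genes placed on the 18 autosomes, X and Y of Sscrofa11.1, and were each given a window from 3 kb before to 3 kb after the gene. The mesometrial side of the uterus was sampled from Yorkshire gilts on day 15: circular muscle of pregnant gilts (GD15M_CM), longitudinal muscle of pregnant gilts (GD15M_LM) and circular muscle of cyclic gilts, that is, at that day of the estrous cycle (CD15M_CM). H3K4me3, H3K27ac and an IgG control were profiled by CUT&Tag, in which a transposase tethered to the antibody cuts the DNA at the marked nucleosomes, giving 18 libraries from 2 gilts per tissue. The libraries of both gilts were pooled before peak calling, so there was 1 peak list for each mark and tissue, 6 lists in all, without a replicate check, and every difference below is a description with no test.

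Contraction of smooth muscle depends on phosphorylation of the myosin light chain, which myosin light chain kinase adds and myosin phosphatase removes. Active RhoA, loaded with GTP by exchange factors such as ARHGEF12 (LARG) downstream of G protein-coupled receptors, binds ROCK1 and ROCK2, and these kinases inhibit myosin phosphatase, so that tension is held at a given calcium level. In the uterus this pathway is known as a sensitizer of the contractile response to agonists such as oxytocin and prostaglandins. H3K4me3 lies at active promoters and H3K27ac at active promoters and enhancers.

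The fold enrichment of a peak is its signal over IgG, and because fold enrichments of separate lists need not share a scale, each peak was ranked in its own list: its percentile is the percent of the peaks of that list with a fold enrichment at or below its own. A gene took the percentile of its highest peak, and 0 without a peak. A difference of at least 10 percentile points between lists was counted as called. How the caller summarised fold enrichment along a peak is not given in the sources used here. The gene models had no strand and no exons, so gene ends are named by coordinate. The GD15M_CM, GD15M_LM and CD15M_CM lists held 33599, 31910 and 36331 H3K4me3 peaks and 79877, 57010 and 82037 H3K27ac peaks, and the lists give no read depth. All 9 smooth muscle markers examined, among them MYH11, ACTA2 and DES, carried both marks in all 3 tissues. No differences were called between GD15M_LM and CD15M_CM, because layer and reproductive state cannot be told apart there. Where the order of all 3 lists is given below, it only describes the values.

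All 10 genes had a peak of both marks in all 3 tissues. For comparison, an H3K4me3 peak was present at 60.0%, 61.0% and 61.7% of all genes in GD15M_CM, GD15M_LM and CD15M_CM, and an H3K27ac peak at 62.9%, 61.3% and 64.9%. All 10 genes are protein-coding. Over protein-coding genes the shares were 73.7%, 74.6% and 75.4% for H3K4me3 and 73.9%, 73.1% and 75.8% for H3K27ac. The median H3K4me3 percentile of the 10 genes was 91.7, 91.3 and 95.8 in the same order, beside 80.9, 79.5 and 81.8 over all genes with a peak. For H3K27ac it was 95.0, 94.0 and 92.6, beside 86.9, 83.2 and 85.2. Gene length was not matched, and a longer window offers more peaks from which the highest is taken. The lowest values were 72.0 for H3K4me3 (RND3 in GD15M_CM) and 76.3 for H3K27ac (ROCK2 in CD15M_CM). As these are whole tissue pieces, fewer cells carrying a mark and less mark per cell cannot be told apart.

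**Figure D1:**
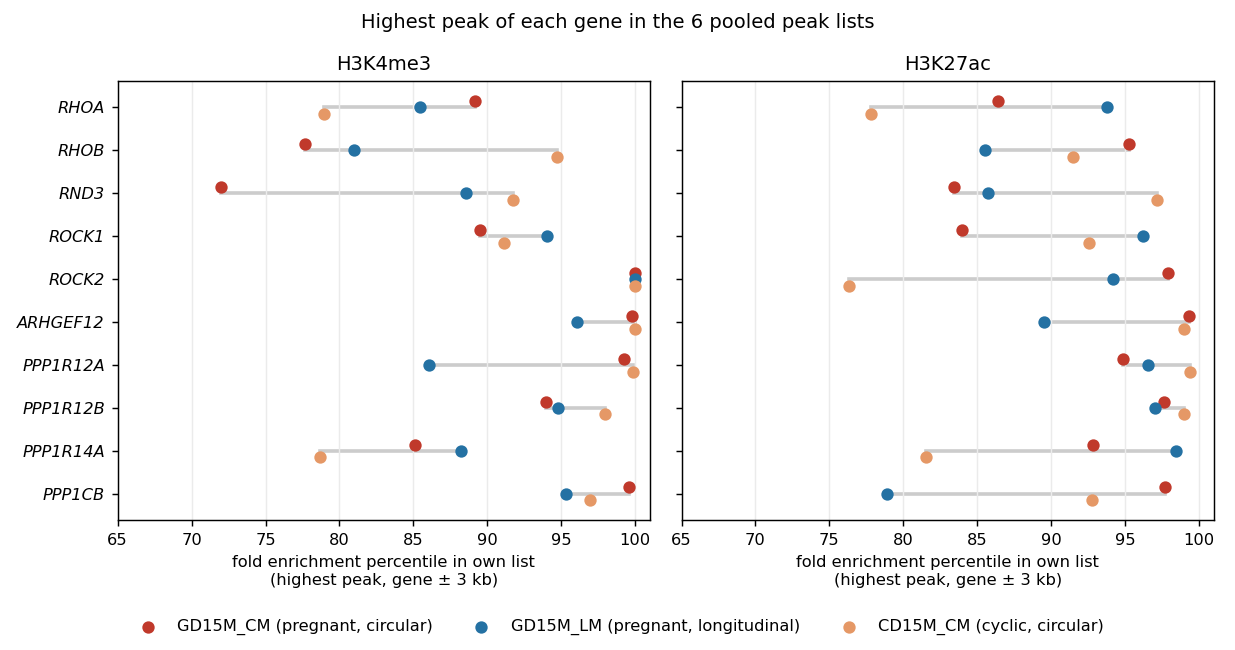
Fold enrichment percentile (x axis, in percent of the peaks of the same list, not drawn from 0) of the highest peak in the window of each gene, for H3K4me3 (left) and H3K27ac (right). Each point is 1 pooled list of 2 gilts, coloured by tissue, and the grey line spans the 3 tissues. ROCK2 lies at the right edge for H3K4me3 in all 3 tissues, and RND3 in GD15M_CM is the leftmost point at 72.0.

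Among the GTPases, RHOA (chr13:31918484-31991207, 72.7 kb) encodes the switch itself. Its strongest H3K4me3 peak lay across the higher-coordinate end of the gene, at percentile 89.2 in GD15M_CM, 85.5 in GD15M_LM and 78.9 in CD15M_CM. This peak was 4.65, 6.86 and 8.30 kb long in the same order, so the tissue with the longest peak had the lowest rank. Its −log10 p was 116, 126 and 142. TCTA begins just past this end of RHOA, so the peaks of all 3 lists reached into TCTA and the signal of both genes cannot be told apart. A weaker H3K4me3 region at the other end, at percentiles 68.2, 80.6 and 69.5, covered the neighbouring gene GPX1.

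H3K27ac over the strongest H3K4me3 peak of RHOA was at percentile 79.7 in GD15M_CM, 87.9 in GD15M_LM and 77.8 in CD15M_CM. At the GPX1 end, H3K27ac was at 74.9, 93.8 and 13.8. GD15M_LM was the highest of the 3 at both ends, and at the GPX1 end CD15M_CM held a peak near the bottom of its list. The highest H3K27ac peak in GD15M_CM was an internal one of 458 bp at percentile 86.4, located 66.4 kb from the lower-coordinate end, and neither other list had a peak there.

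RHOB (chr3:117773400-117777569, 4.17 kb) encodes a short-lived relative of RhoA that responds to growth factors and stress. One H3K4me3 peak of 6.23, 6.97 and 6.23 kb covered the whole gene. Its percentile was 77.7 in GD15M_CM, 81.0 in GD15M_LM and 94.7 in CD15M_CM, with fold enrichments of 14.5, 20.3 and 29.3. CD15M_CM was thus the highest of the lists. H3K27ac did not follow this order: the highest peak was at 95.2 in GD15M_CM, 85.5 in GD15M_LM and 91.5 in CD15M_CM. Acetylation of the gene was called as 1 peak of 5998 bp in CD15M_CM and as separate shorter peaks in both pregnant lists.

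RND3 (chr15:1715589-1732605, 17017 bp) encodes an atypical GTPase that stays bound to GTP, inhibits ROCK1 and opposes RhoA. Its H3K4me3 peak lay at the lower-coordinate end and had nearly the same length in GD15M_CM, GD15M_LM and CD15M_CM, 3.72, 4.16 and 3.82 kb. Its fold enrichment was 12.0, 24.6 and 26.2, which put it at percentile 72.0, 88.5 and 91.7. H3K27ac over this peak was at 77.7, 85.7 and 97.2, so for both marks GD15M_CM was lowest and CD15M_CM highest. In GD15M_CM the acetylated stretch was called as 2 peaks, and in each other list as 1. Of the 9 H3K27ac regions in the window, 5 had a peak in CD15M_CM alone, at percentiles from 17.8 to 68.1, 1 in GD15M_CM alone, at 60.3, and 0 in GD15M_LM alone. Over the regions at all genes these shares were 19.4%, 21.2% and 5.15%, and 9 regions are few to set beside them.

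ARHGEF12 (chr9:47474566-47621034, 146 kb) encodes the exchange factor that couples G12/13 and Gq receptors to RhoA. Its H3K4me3 peak at the lower-coordinate end was 5.64, 5.63 and 5.96 kb long and had rank 83 in GD15M_CM, rank 1255 in GD15M_LM and rank 16 in CD15M_CM. H3K27ac there was at percentile 99.3, 89.5 and 99.0. Both circular lists were above the longitudinal list for each mark, by less than 10 points. A second H3K27ac region, 4.36 to 5.15 kb into the gene, was at 88.4 in GD15M_CM and 98.4 in CD15M_CM but at 19.5 in GD15M_LM.

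ROCK2 (chr3:125353063-125493368, 140 kb), one of the 2 kinase genes, had the highest H3K4me3 rank of the 10 genes. Its peak at the lower-coordinate end ranked 2 in GD15M_CM, 3 in GD15M_LM and 9 in CD15M_CM, with fold enrichments of 43.4, 51.9 and 51.4. H3K27ac at the same place was at percentile 97.9 in GD15M_CM and 94.1 in GD15M_LM but 47.5 in CD15M_CM, where the fold enrichment was 3.45 against 7.31 and 7.04. The CD15M_CM stretch was called as 1 peak of 4.39 kb, while the highest peaks of the pregnant lists were 937 and 3001 bp long, and the part of this difference in length in the lower value was not tested. Beyond this end the 140-kb gene held no H3K27ac peak in either pregnant list and 1 of 203 bp in CD15M_CM.

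ROCK1 (chr6:106163899-106314998, 151 kb), the other kinase gene, had a single H3K27ac peak in each list, at its higher-coordinate end and within its H3K4me3 peak. H3K4me3 was at percentile 89.5 in GD15M_CM, 94.1 in GD15M_LM and 91.2 in CD15M_CM. H3K27ac was at 84.0, 96.2 and 92.5. GD15M_LM was highest for both marks and GD15M_CM lowest. In both kinase genes the H3K27ac peaks lay at the end that carried H3K4me3, apart from the 203-bp peak of ROCK2.

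PPP1CB (chr3:110437681-110474896, 37.2 kb) encodes the catalytic subunit of myosin phosphatase. It also had 1 H3K27ac peak per list, at the higher-coordinate end, of 3.07, 3.05 and 3.29 kb. Its percentile was 97.7 in GD15M_CM, 78.9 in GD15M_LM and 92.7 in CD15M_CM, so the longitudinal list was the lowest of the 3 at about the same length. H3K4me3 at this end was at 99.6, 95.3 and 96.9. The non-coding gene LOC106509865 starts beside this end of PPP1CB, and its signal cannot be told apart from that of PPP1CB.

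PPP1R12A (chr5:101490282-101639456, 149 kb) encodes MYPT1, the subunit that targets the phosphatase to myosin and that ROCK phosphorylates. Its H3K4me3 peak at the lower-coordinate end was at percentile 99.3 in GD15M_CM, 86.1 in GD15M_LM and 99.8 in CD15M_CM. H3K27ac at this end showed another order, 72.3 in GD15M_CM, 96.6 in GD15M_LM and 99.4 in CD15M_CM, with lengths of 2.76, 2.78 and 2.77 kb. The 2 marks therefore separated different tissues at one place: H3K4me3 was lowest in longitudinal muscle and H3K27ac lowest in pregnant circular muscle. H3K27ac peaks in the window numbered 12 (GD15M_CM), 6 (GD15M_LM) and 14 (CD15M_CM), and 5.91%, 11.2% and 4.78% of protein-coding genes had as many. The GD15M_LM list is also the shortest of the H3K27ac lists. A region 33.6 to 35.0 kb from the lower-coordinate end was at 94.8, 51.9 and 76.7, and was the highest H3K27ac peak of the gene in GD15M_CM. A region at 19.8 to 20.8 kb went the other way, at 51.7, 88.5 and 97.0.

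**Figure D2:**
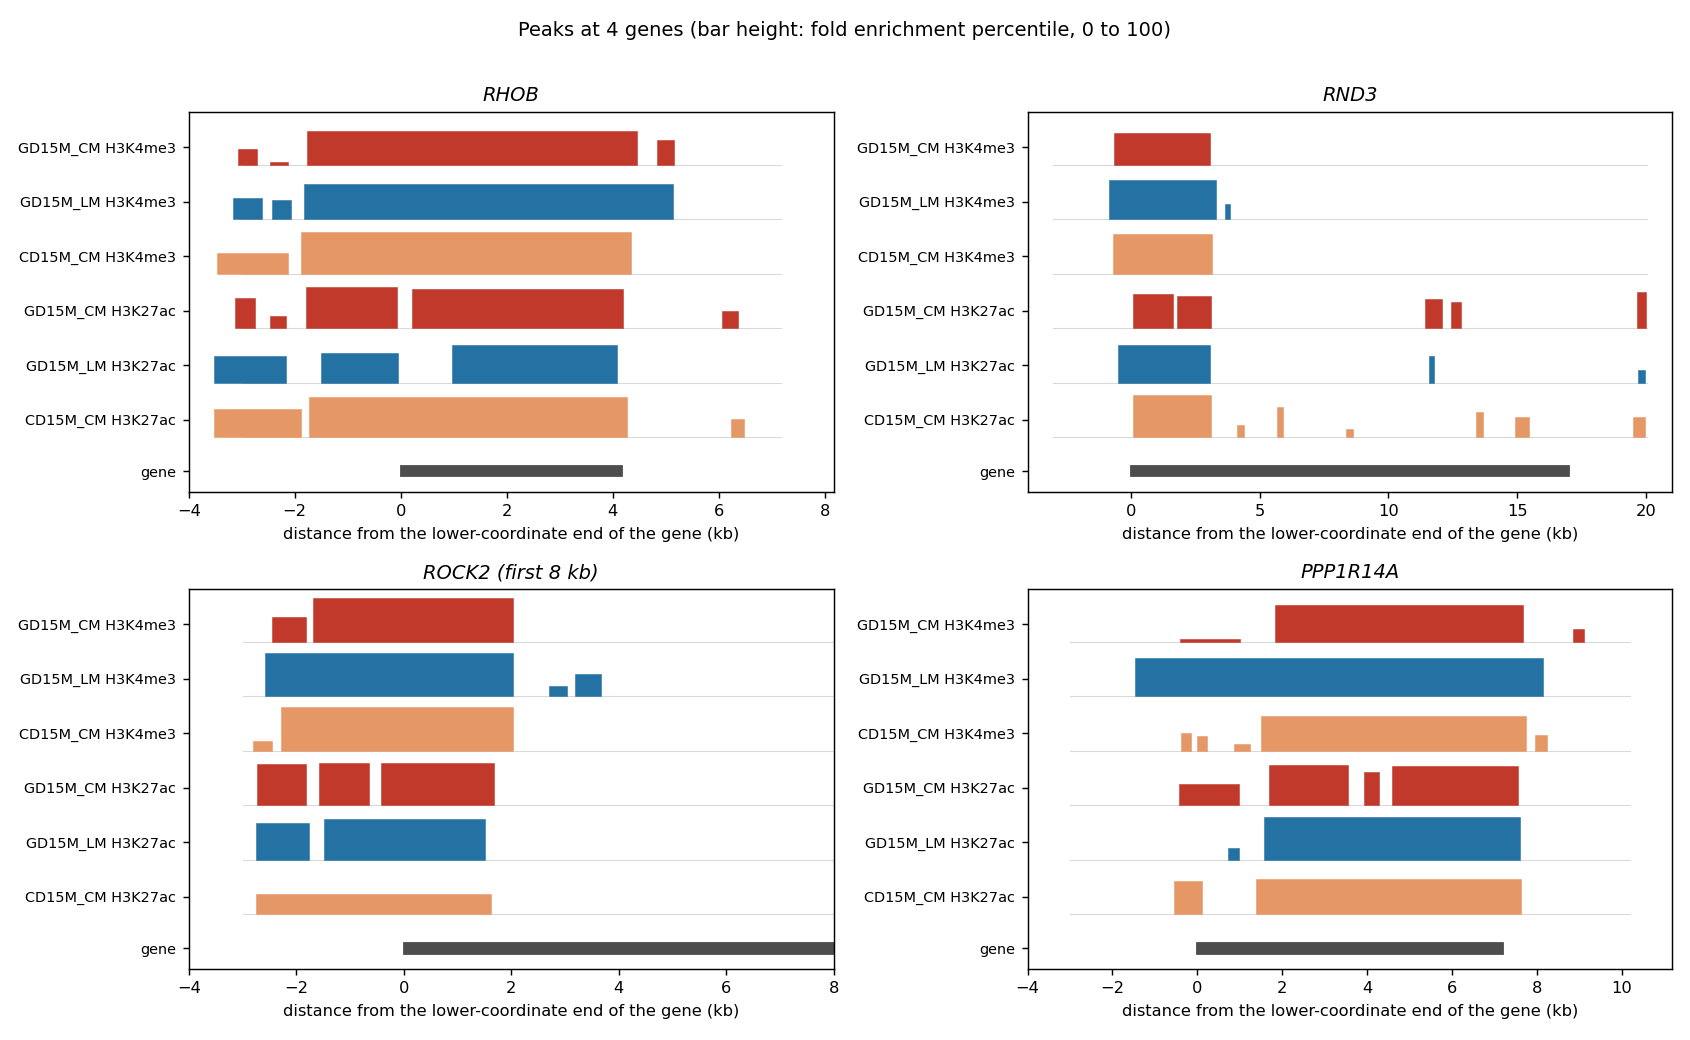
Peaks of both marks at RHOB, RND3, PPP1R14A and the first 8 kb of ROCK2. The x axis is the distance in kb from the lower-coordinate end of the gene, the dark bar is the gene, each row is 1 pooled list, and the height of a bar is the fold enrichment percentile of that peak on a scale from 0 to 100. The CD15M_CM H3K27ac bar of ROCK2 is long and low, at 47.5, and the GD15M_LM H3K4me3 bar of PPP1R14A extends past both ends of the gene.

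PPP1R14A (chr6:47167105-47174299, 7.20 kb) encodes CPI-17, the smooth muscle inhibitor of the phosphatase. The study chose it for display from RNA data of these tissues, so its marks are not independent evidence of a direction. A single H3K4me3 peak of 9.60 kb in GD15M_LM ran from 1.46 kb before the gene to 8.14 kb from its lower-coordinate end. The strongest peak was 5.84 kb in GD15M_CM and 6.26 kb in CD15M_CM, and the remaining stretch held short peaks. Percentiles were 85.1 in GD15M_CM, 88.2 in GD15M_LM and 78.7 in CD15M_CM. H3K27ac was at 92.8, 98.4 and 81.5. The longitudinal list was thus the highest for both marks and the cyclic list the lowest. The highest H3K27ac peak was 6.03 kb long in GD15M_LM and 6.24 kb in CD15M_CM, and 1.88 kb in GD15M_CM. A second H3K27ac region lay across the lower-coordinate end in all 3 lists, at percentiles 48.6, 27.9 and 76.5.

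**Figure D3:**
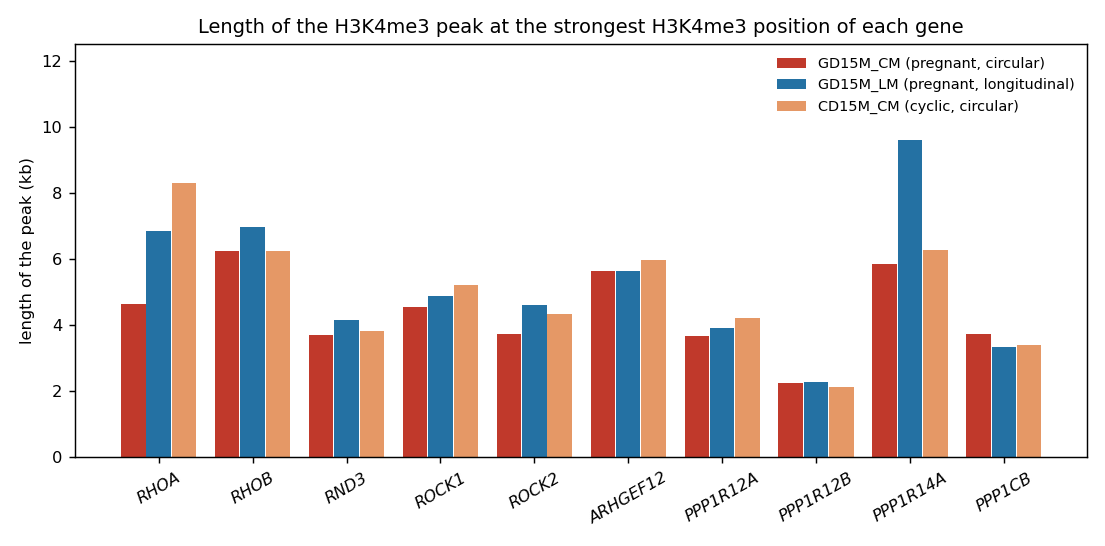
Length in kb (y axis, from 0) of the H3K4me3 peak at the strongest H3K4me3 position of each gene. Bars are the 3 pooled lists, 1 value each, without error bars because replicates were pooled. The bar of PPP1R14A in GD15M_LM, at 9.60 kb, is the tallest, and the 3 bars of RHOA go from 4.65 to 8.30 kb.

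PPP1R12B (chr10:24463900-24637361, 173 kb, 18 RefSeq transcripts) encodes MYPT2, a second myosin-targeting subunit best known from heart and skeletal muscle. It held more peaks than any of the others in each of the 6 lists. Counted in the order GD15M_CM, GD15M_LM and CD15M_CM, its window had 10, 16 and 19 H3K4me3 peaks and 39, 20 and 25 H3K27ac peaks. As many H3K27ac peaks were found at 0.716%, 1.46% and 1.70% of all protein-coding genes, whose lengths differ from that of PPP1R12B. The number of H3K27ac peaks and the length they covered did not follow each other, since 47.7, 50.2 and 57.5 kb were covered in the same order.

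The peaks of PPP1R12B fell into 3 stretches, set after the values were seen. In the first 5 kb, the H3K4me3 peak was at percentile 94.0 in GD15M_CM, 94.8 in GD15M_LM and 98.0 in CD15M_CM, and H3K27ac at 96.6, 87.6 and 92.0. From 5 to 110 kb there was 1 H3K4me3 peak in GD15M_CM, 0 in GD15M_LM and 2 in CD15M_CM, all weak (percentile 18.1 or less). H3K27ac peaks there numbered 10 in GD15M_CM and 8 in CD15M_CM, up to percentile 80.5 and 84.6, and the shorter GD15M_LM list had 0.

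The last 66.5 kb of the window of PPP1R12B, from 110 kb to the higher-coordinate end and 3 kb past it, carried a dense block of both marks. H3K27ac covered 59.7% of it in GD15M_CM, 73.2% in GD15M_LM and 78.7% in CD15M_CM. H3K4me3 covered 10.1%, 44.7% and 29.3%, or 6.70, 29.7 and 19.5 kb. GD15M_CM had the lowest cover for both marks. The block had its strongest H3K4me3 region at 137.6 to 142.1 kb, at percentiles 73.2, 90.8 and 74.5. The stretch from 142.9 to 146.1 kb had an H3K4me3 peak at 64.4 in GD15M_LM and 55.1 in CD15M_CM and none in GD15M_CM, while H3K27ac at the same stretch was at 90.3, 89.5 and 94.9. The neighbouring gene SYT2 lies within the window from 174745 bp past the lower-coordinate end of PPP1R12B. An H3K27ac region at 173.6 to 176.0 kb reached into SYT2, and the signal of both genes cannot be told apart there.

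**Figure D4:**
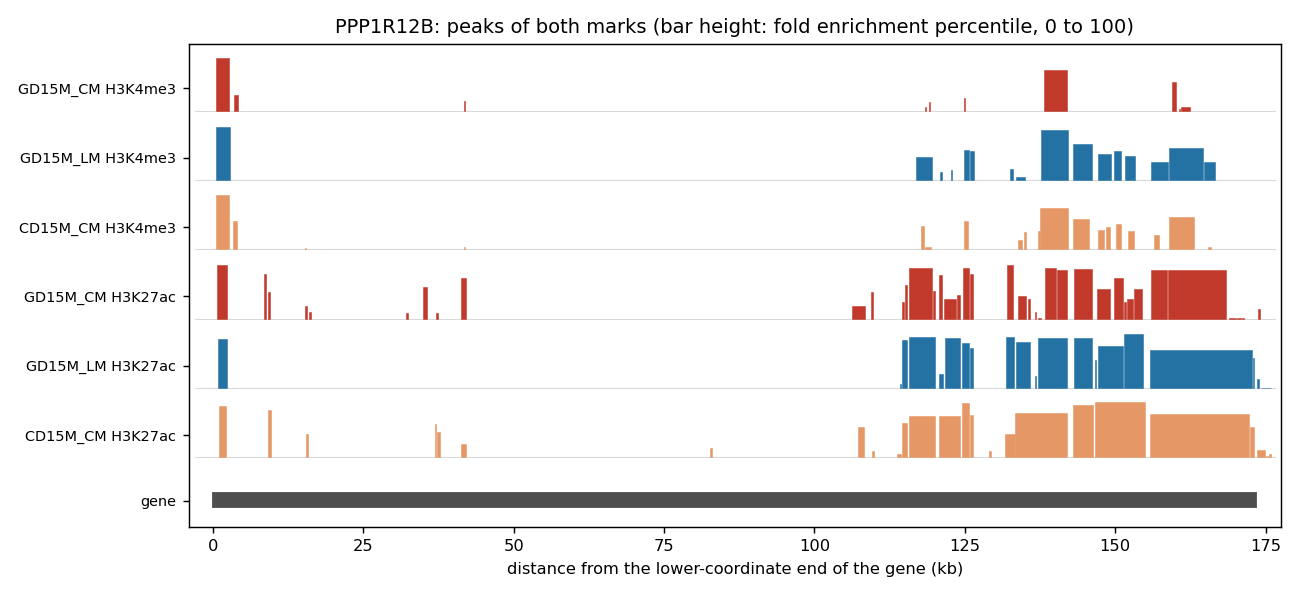
Peaks along PPP1R12B by distance in kb from its lower-coordinate end (x axis), 1 row per pooled list, with bar height as the fold enrichment percentile from 0 to 100 and the gene as the dark bar. H3K27ac fills most of the stretch beyond 110 kb in all 3 lists, while the H3K4me3 row of GD15M_CM has few bars there and covers 10.1% of it.

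When peaks that overlap between lists were joined, the 10 genes held 44 H3K4me3 regions and 76 H3K27ac regions. Of these, 18 (40.9%) and 29 (38.2%) had a peak in all 3 tissues, beside 46.1% and 33.4% of the regions at all genes. For H3K4me3, 7 regions (15.9%) were found in GD15M_LM and CD15M_CM but not GD15M_CM, beside 7.07% at all genes, and all 7 lie in PPP1R12B. For H3K27ac, 16 regions (21.1%) had a peak in GD15M_CM alone and 17 (22.4%) in CD15M_CM alone, shares near the 21.2% and 19.4% at all genes. Regions with a peak in GD15M_LM alone numbered 0 for H3K27ac, beside 5.15% at all genes, and 9 for H3K4me3 (20.5%), beside 11.5%. A further 11 H3K27ac regions (14.5%) were found in both circular lists only, beside 11.9%. H3K27ac without H3K4me3 in any tissue was found at 41 of the 76 regions (53.9%), beside 63.5% at all genes.

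The first comparison asked how the muscle layers of the pregnant uterus differ, GD15M_LM against GD15M_CM. For H3K4me3, RND3 ranked higher in longitudinal muscle by 16.5 percentile points and PPP1R12A lower (−13.2 points). That is 1 of 10 genes in each direction, beside 20.2% and 20.9% of all genes. For H3K27ac, ROCK1 ranked higher in longitudinal muscle by 12.2 points and PPP1CB lower (−18.8 points), again 1 of 10 each way, beside 22.6% and 33.8%. The median difference of the 10 genes was 0.39 points for H3K4me3 and 0.57 for H3K27ac, and over all genes it was −0.40 and −2.30. The counts were near or below those of genes at large. With percentiles by −log10 p instead of fold enrichment, PPP1R12A (−4.36), ROCK1 (7.53) and PPP1CB (−2.80) were below 10 points. A strict threshold kept peaks whose fold enrichment was 5 or more and whose −log10 p was 10 or more. Genes without such a peak were set to 0. The differences were then larger, at 37.7 for RND3, −25.2 for PPP1R12A, 80.9 for ROCK1 and −75.6 for PPP1CB. The only H3K27ac peak of ROCK1 in GD15M_CM, at fold enrichment 4.78, fell just under the threshold, so 0 stood on that side. The threshold was the same for all lists, whose fold enrichments need not share a scale.

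Restricting H3K27ac to the strongest H3K4me3 peak of each gene, a setting chosen after seeing the data, added PPP1R12A, which was 24.3 points higher in longitudinal muscle. The counts were then 2 of 10 higher and 1 of 10 lower, beside 25.4% and 33.0% of all genes.

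The other comparison asked how pregnancy and the cycle differ in circular muscle on day 15, GD15M_CM against CD15M_CM. It shares the GD15M_CM list with the comparison of layers, so the 2 are not independent. For H3K4me3, RHOA ranked higher in pregnant muscle by 10.2 points, while RHOB (−17.03) and RND3 (−19.7) ranked lower. That is 1 and 2 of 10, beside 12.4% and 23.9% of all genes. For H3K27ac, ROCK2 (21.6) and PPP1R14A (11.3) ranked higher in pregnant muscle and RND3 lower (−13.7), which is 2 and 1 of 10, beside 25.5% and 27.4%. Medians were −0.39 and 2.06 points, and over all genes −2.13 and −0.16. These counts too were near those of genes at large. The whole-window H3K27ac values of ROCK2 and RND3 compare peaks at different places. For ROCK2 the CD15M_CM value (76.3) is that of the 203-bp peak inside the gene. For RND3 the GD15M_CM value (83.5) is that of a 326-bp peak 19.6 kb from the lower-coordinate end. The value of the other list in each pair lies at the lower-coordinate end. With percentiles by −log10 p, RHOA (4.73), RHOB (−8.68) and PPP1R14A (0.83) were below 10 points. Under the strict threshold RHOA was at 23.3, RHOB at −36.0 and RND3 at −41.5 for H3K4me3, and ROCK2 at 82.8, PPP1R14A at 41.2 and RND3 at −77.2 for H3K27ac. Each of these H3K27ac values had 0 on its lower side, where no peak passed. The highest fold enrichments there were 4.37 for ROCK2 and 4.68 for PPP1R14A in CD15M_CM, and 4.74 for RND3 in GD15M_CM.

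At the strongest H3K4me3 peak, the H3K27ac differences between pregnant and cyclic circular muscle were larger for ROCK2, at 50.5 points, and for RND3, at −19.5. PPP1R12A was then lower in pregnant muscle (−27.1 points). The counts were 2 of 10 in each direction, beside 29.1% and 27.6% of all genes. A difference of the size seen at ROCK2 was found, in either direction, at 11.4% of genes in this setting, and its 21.6 points over the whole window at 30.9%. The whole-window H3K27ac differences of RND3 and PPP1R14A were reached by 44.1% and 49.5% of genes. RND3 was the only one of the 10 genes called for both marks in this comparison, lower in pregnant muscle each time.

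**Figure D5:**
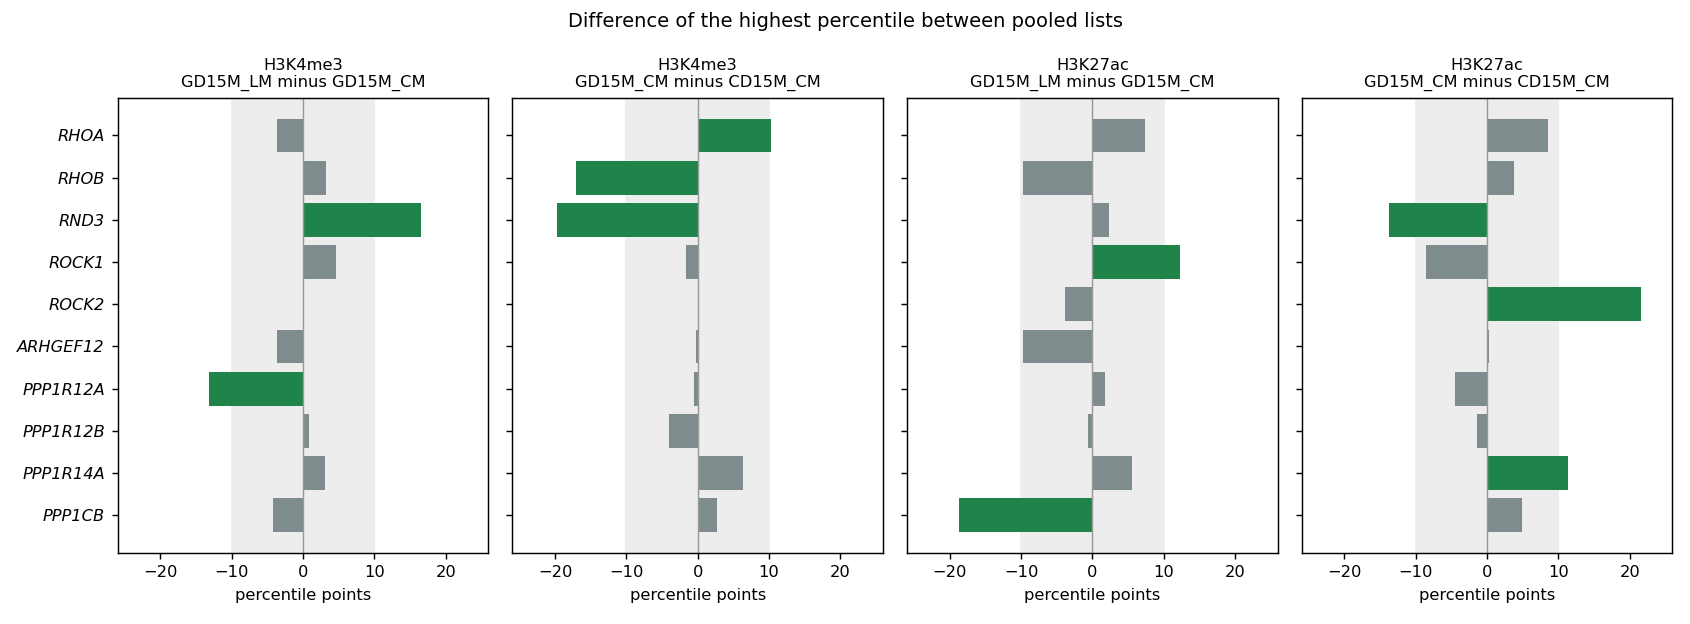
Difference of the highest fold enrichment percentile between pooled lists (x axis, percentile points) for each gene, with 1 panel per mark and comparison as titled. Bars outside the grey band, coloured green, differ by at least 10 points, and there are no error bars because each list is a pool. RND3 is green in 3 of the 4 panels, at 16.5, −19.7 and −13.7 points.

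Other genes of the pathway were described from a list of 50, of which 49 could be placed. In H3K4me3, 12 ranked at least 10 points higher in GD15M_LM than in GD15M_CM and 8 lower, beside 20.2% and 20.9% of all genes. Among those higher, the largest differences were those of ARHGAP42, a smooth muscle GTPase-activating protein for RhoA (98.8 against 72.6), of PPP1R14B, a relative of CPI-17 (87.1 against 63.9), and of MYLK, the myosin light chain kinase (98.5 against 76.5). RAC1, a GTPase of the actin cytoskeleton, went the other way (65.1 against 89.7), as did ARHGEF25, an exchange factor driven by Gq (72.5 against 93.6), and PPP1CA, another catalytic subunit (71.0 against 88.9). By group, 1 of 5 other GTPases was higher and 2 lower, 0 and 1 of 10 G proteins and exchange factors, 2 and 0 of 7 negative regulators of RhoA, 2 and 1 of 5 other phosphatase subunits and inhibitors, 0 and 3 of 7 kinases that act on the phosphatase or beside ROCK, 3 and 0 of 5 placed genes of myosin and its kinase, and 4 and 1 of 10 genes of the actin branch.

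Between pregnant and cyclic circular muscle, 8 of the 49 genes ranked higher for H3K4me3 in GD15M_CM and 8 lower, beside 12.4% and 23.9% of all genes. Furthest down were MYLK (76.5 against 97.2), MYH11, the smooth muscle myosin heavy chain (79.1 against 94.5), and MYL9, the regulatory light chain (74.6 against 89.7). The study also displayed MYL9 from RNA data and used MYH11 as a contraction marker. Furthest up were RND2, a relative of RND3 (98.3 against 78.5), PKN2, a protein kinase (98.7 against 81.9), and PPP1CA (88.9 against 73.3). Higher and lower calls were 2 and 0 among the other GTPases, 2 and 0 among G proteins and exchange factors, 0 and 2 among negative regulators, 1 and 2 among phosphatase subunits and inhibitors, 1 and 0 among kinases, 1 and 3 among myosin and its kinase, and 1 and 1 in the actin branch. The 1 gene of myosin and its kinase that ranked higher was MYL12B, another regulatory light chain (97.3 against 86.3), which is named to complete the group.

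For H3K27ac, 7 of the 49 genes ranked higher in GD15M_LM than in GD15M_CM and 14 lower, beside 22.6% and 33.8% of all genes. Each of the 7 groups had 1 higher, with 1 lower among the other GTPases, 3 in the actin branch and 2 in every other group. LIMK1, the kinase of cofilin downstream of ROCK, was higher (87.6 against 39.2), with DAPK3, a kinase of MYPT1 (99.0 against 63.4), and ARHGAP42 (85.0 against 63.2). DIAPH3, an actin-nucleating formin, had no peak in GD15M_LM and was at 98.4 in GD15M_CM. GNA11, a Gq-class subunit, was at 17.6 against 99.4, and PPP1CA at 58.1 against 95.4. Against CD15M_CM, GD15M_CM had 7 higher and 11 lower, beside 25.5% and 27.4% of all genes. Higher and lower calls were 1 and 1 among the other GTPases, 0 and 1 among G proteins and exchange factors, 1 and 1 among negative regulators, 1 and 2 among phosphatase subunits and inhibitors, 3 and 2 among kinases, 0 and 2 among myosin and its kinase, and 1 and 2 in the actin branch. PPP1CA (95.4 against 60.3), ARHGDIB, an inhibitor of GDP dissociation abundant in blood cells (83.5 against 51.8), and RND2 (98.7 against 69.9) were higher in pregnant muscle. PPP1R14C was lower, with no peak against 43.4, as were LIMK1 (39.2 against 75.7) and CIT, citron kinase (30.7 against 59.6).

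Summed percentiles of the marker genes of several cell types differed between tissues, though single genes did not all move together. Summed over the 9 smooth muscle markers, the H3K4me3 percentiles came to 694 in GD15M_CM, 791 in GD15M_LM and 780.3 in CD15M_CM, and for H3K27ac to 784, 807 and 840.1. Between layers, 4 of these 9 were called higher in GD15M_LM and 0 lower for H3K4me3, beside 20.2% and 20.9% of all genes. For H3K27ac, 3 were higher and 2 lower, beside 22.6% and 33.8%. In GD15M_CM against CD15M_CM, 0 were higher and 5 lower for H3K4me3, beside 12.4% and 23.9%. The H3K27ac counts there were 0 and 2, beside 25.5% and 27.4%. The 4 epithelial markers came to 314, 232 and 319.6 for H3K4me3 and 312, 70.2 and 206 for H3K27ac, and KRT18 had no H3K27ac peak in GD15M_LM. The 4 T cell markers came to 277, 240.2 and 230.0 for H3K4me3 and 130.5, 63.6 and 52.0 for H3K27ac, and CD3E and CD3D had no H3K27ac peak in any list. Between layers, LCK was the only T cell marker called for H3K4me3 (63.2 in GD15M_LM against 90.9 in GD15M_CM). CD3E went the other way (57.5 against 51.7). Over the 3 tissues the sums for the other lists ran from 242 to 260.4 and 176 to 194 for 4 endothelial genes (H3K4me3 and H3K27ac), 146 to 160.2 and 155 to 175 for 2 mesothelial genes, and 168 to 202 and 159 to 197 for 4 macrophage and B cell genes. KDR had no H3K27ac peak and MS4A1 no peak of either mark in any list. The part of cell make-up in the differences at RND3, PPP1R12B, MYLK, MYH11 and MYL9 was not tested.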

How the data were processed

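H3K4me3, H3K27ac and IgG were profiled on day 15 in 18 libraries, which were grouped by the labels. According to the submitters' processing notes and the methods, the authors mapped reads to Sscrofa11.1 with BWA 0.7.17-r1188, filtered them with SAMtools 1.9 and Picard 2.8.3, called peaks on the pooled replicates using MACS2 2.2.6, giving the 6 deposited lists. The deposited fold enrichment is a ratio of mark over IgG, and how both were scaled is not given in the sources used here. The −log10 p of each peak was deposited under an unreadable column name and identified by the MACS2 column order. A deposited −log10 q was not used. The lists give no read totals. The study states reads per library in its supplement, which were not used here, and no interval is given.

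Genes and windows came from RefSeq gene models of Sscrofa11.1 without strand, exons or sequence, so no sequence is shown. Of the 50 pathway genes 3 were matched by an older symbol. A peak counted with 1 bp in the window. Overlap and percentile code was tested on simulated data with 0 of 400 errors each. No test across samples was made. The alternatives comprised a strict threshold (fold enrichment 5 or more, −log10 p 10 or more), a window of 1 kb, gene ends only, 50% of the peak in the window, ranking by −log10 p, equal numbers of top peaks, merging of peaks less than 1 kb apart and, added after seeing the data, only peaks at the strongest H3K4me3 peak. Named are all 10 members and, of the other pathway genes, up to 3 called per direction of largest difference in each comparison. Members and lists were chosen with earlier results of these data known. The tools were Python 3.11.15, pandas 2.3.3, NumPy 2.4.6, SciPy 1.17.1 and Matplotlib 3.10.9.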

Additional observations from a re-analysis of the deposited data

How the results depend on the processing

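All 10 called differences kept their direction in each of the 7 alternatives counted per difference, and 4 stayed at 10 points or more in each. These were H3K4me3 of RND3 in both comparisons, and H3K27ac of RND3 and ROCK2 between pregnant and cyclic circular muscle. At the strongest H3K4me3 peak all 10 kept their direction and at least 10 points. For H3K4me3 this is no separate check. The setting is defined by that mark's own strongest peak, and these differences equalled those over the whole window. Every alternative used the same pooled lists, so none measures how gilts vary. The study's own differential analysis found far fewer H3K27ac than H3K4me3 regions between pregnant and cyclic circular muscle. Whether regions of the 10 genes are among them was not examined. The counts of genes with a peak stayed within 1.5 times, but not all 10 genes kept both marks in all 3 tissues. Under the strict threshold, RHOA, RND3 and ROCK1 kept no H3K27ac peak in GD15M_CM. In CD15M_CM, RHOA, ROCK2 and PPP1R14A kept none. Counts of called genes moved as follows. Of the alternatives, only the strongest H3K4me3 peak has a share of all genes given above. The other counts therefore cannot be read beside genes at large. Under the strict threshold, genes higher in GD15M_LM numbered 3 for H3K4me3 and 5 for H3K27ac, with 4 higher in GD15M_CM for H3K27ac. Against CD15M_CM, 2 were higher in GD15M_CM for H3K4me3, and 4 were higher and 4 lower for H3K27ac. Ranked by −log10 p, the layers gave 2 higher and 0 lower in GD15M_LM for H3K4me3 and 0 and 0 for H3K27ac. The pregnant and cyclic lists gave 0 higher and 1 lower for H3K4me3 and 1 higher for H3K27ac. For H3K27ac, gene ends alone gave 3 higher in GD15M_LM and 2 higher in CD15M_CM. Equal numbers of top peaks gave 2 higher in GD15M_LM. Merged peaks gave 2 higher in GD15M_LM, 3 higher in GD15M_CM and 2 higher in CD15M_CM. The strongest H3K4me3 peak gave 2 higher in GD15M_LM and 2 higher in CD15M_CM. The cause of these shifts was not tested. No paired analysis was possible because both replicates were pooled in each list, and for the same reason no replicate could be left out. Depth was not weighed, since the reads per library stated by the study were not used.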
